A study of Rattus norvegicus with 9 samples.

Results

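Rat cortical neurons that had been silenced with tetrodotoxin (TTX) and then washed free of it for 45 min were compared with neurons that were still in the toxin. The members of the comparison are the 6 arrays with these labels, 3 in each group, out of 9 arrays in the study. TTX closes the voltage-gated sodium channels on which action potentials depend, and a culture fires again once the toxin is gone. All cultures, controls included, had 48 h of TTX: the TTX group was collected in it, and the other group 45 min after 3 washes with regular medium. The remaining 3 arrays, collected 15 min after the washes, are used here for the timing of the genes described and for the estimate of the spread. The cells were dissociated from the cortices of pre-natal rat pups, maintained in Neurobasal supplemented with NS21 or B27, and taken after 11 to 15 days in culture. The labels call them mature neurons, give no strain, and do not state whether the 3 replicates of a group came from separate cultures, so each p-value measures only the spread between these samples, which may be technical. No untreated culture was compared here, so every change is a change against silenced cells.

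Neurons answer renewed firing with a wave of immediate early genes, which are transcribed within minutes from factors already present in the nucleus and need no new protein. Calcium that enters through NMDA receptors and voltage-gated calcium channels activates kinases, and these act on CREB, which binds the cyclic AMP response element (CRE), and on the partners of serum response factor (SRF), which binds the CArG box. Many of the products are transcription factors that act on later genes, others switch the kinases off again, and a smaller number act at synapses or outside the cell.

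On these arrays the response at 45 min was small in number of genes, large in size and mostly upward with all arrays in the fit. Of 25785 genes or features tested, 48 were called higher at 45 min than in TTX (0.186% of those tested) and 6 lower (0.0233%), at a Benjamini-Hochberg adjusted p under 0.05 in limma. Without W45 replicate 1 the counts were 71 higher and 95 lower. Of the 12300 that carry a gene symbol, 38 were called higher (0.309%) and 0 lower, and those 38 genes are the ones described. At an unadjusted p under 0.05, 924 of all features were higher and 707 lower, and among those with a symbol 418 and 294. The 38 changes ran from 0.98 to 9.05 on the log2 scale with a median of 2.10, a 4.29-fold rise, while the median over all genes tested was 0.05. The rise was over 4-fold for 19 of them, 2- to 4-fold for 18 and under 2-fold for 1, Otud1. In each of the 38 the lowest array at 45 min lay above the highest TTX array, an order that 7.97% of all genes and features tested showed. The 38 were called on these same arrays, and all 54 called features were without overlap, so this order is no separate support. Since each sample is a bulk extract, fewer cells of a type and less RNA per cell cannot be told apart.

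The promoters of some of these genes carry the letters to which CREB and SRF bind, and 6 of them are printed here because they show the kinds of element found among the 38. RefSeq's table of promoters (assembly GRCr8) held 34 of the 38 genes and 10031 of the 12300 tested; Arc, Fos, Egr3 and Otud1 were not in it. In the 250 bases before the annotated start, searched on both strands, the full CRE TGACGTCA stood in 7 of the 34 (20.6%, against 2.68% of all promoters searched), and the CArG box in 3 (8.82% against 1.19%). Each stretch reads 5′ to 3′ on the strand of its gene and is in lower case, with the CArG box or the CRE in capitals. Dusp5 has a pair of CArG boxes end to end, so that its capitals run without a gap.

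Egr2: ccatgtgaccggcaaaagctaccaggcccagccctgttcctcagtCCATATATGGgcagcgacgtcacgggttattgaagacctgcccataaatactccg

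Dusp5: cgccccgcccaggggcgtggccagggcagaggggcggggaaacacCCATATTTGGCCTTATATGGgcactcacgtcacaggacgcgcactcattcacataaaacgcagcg

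Ch25h: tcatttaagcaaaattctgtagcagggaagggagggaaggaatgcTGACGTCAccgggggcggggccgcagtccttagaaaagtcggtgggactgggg

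Dusp1: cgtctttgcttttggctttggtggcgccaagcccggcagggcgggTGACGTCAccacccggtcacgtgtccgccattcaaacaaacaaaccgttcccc

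Btg2: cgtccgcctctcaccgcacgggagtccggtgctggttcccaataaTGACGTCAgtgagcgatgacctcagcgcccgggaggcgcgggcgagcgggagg

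Vgf: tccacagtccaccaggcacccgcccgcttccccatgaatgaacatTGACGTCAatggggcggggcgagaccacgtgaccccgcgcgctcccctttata

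The stretch of Egr2 lies at chr20:21054470-21054569 on the minus strand, and its CArG box begins 83 bases before the annotated start of the gene. That of Dusp5 lies at chr1:262543647-262543756 on the plus strand, with boxes beginning 82 and 72 bases before the start. The CREs begin 77 bases before the start in Ch25h (chr1:241429391-241429488, minus strand), 124 in Dusp1 (chr10:17184684-17184781, plus strand), 201 in Btg2 (chr13:48087839-48087936, minus strand) and 90 in Vgf (chr12:25277058-25277155, minus strand). Ier2, Maff and Ppp1r15a hold the other full CREs, and Egr1 the remaining CArG boxes. A match describes letters in a window and is not evidence that a factor was bound there.

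Other motifs were counted in the same windows. The core TGACG, which every full CRE also contains, stood in 18 of the 34 promoters (52.9%) against 26.7% of all. The sequence TATAA, added to the search after these promoters had been read, was found in 16 (47.1%) against 14.8%. EGR sites, GCGNGGGCG, were present in 6 (17.6%) against 8.46%, and the AP-1 site TGANTCA in 0 (0%) against 4.61%, which says only that those letters are not in these windows. The median GC content was 62.0% in the 34 and 59.6% in all. These shares are descriptions without a test.

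**Figure D1:**
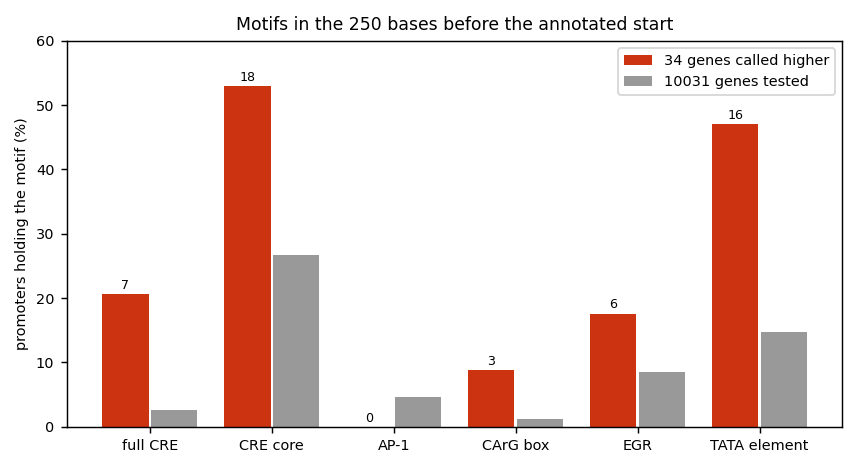
Bars give the percent of promoters, counted in the 250 bases before the annotated start, that hold each of 6 motifs, for the 34 called genes in the table (red, with the number of promoters above each bar) and for all 10031 genes tested in the table (grey). The full CRE, its core (TGACG), the CArG box, the EGR site and TATAA were in a larger percent of the red promoters, and the AP-1 site in 0 of them.

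Transcription regulators made up the largest group, 15 of the 38 genes, with log2 changes from 1.34 to 9.05 and a median of 2.85. All levels below are the log2 processed signal of a gene's probe minus the 75th percentile of that array, so that 0 is the 75th percentile of an array's probes, and they compare arrays for 1 probe only. Npas4, a basic helix-loop-helix factor of the PAS family that calcium induces in neurons, stood at -8.68, -8.45 and -8.73 on the TTX arrays and at 0.70, 0.46 and 0.11 at 45 min. In TTX the probe never reached the level counted as well above background, which makes the fold a lower bound: at least 199.8-fold higher. The adjusted p of 8.39e-06 in limma belongs to the measured log2 change of 9.05 and does not test that bound. Normexp background correction, run as an alternative, adds an offset of 50 to every corrected signal, which makes log2 changes of dim probes smaller. With normexp the log2 change of Npas4 was 5.44, a 43.3-fold rise (adjusted p 0.000187 in limma). The bound holds for the processed signal without that offset. It sets the mean at 45 min against the lowest signal that counted as above background on each TTX array.

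The AP-1 leucine zipper genes formed a wide span of sizes. Fosl1, which encodes the Fos family protein Fra-1 (probe at chr1:208252280-208252339 of rn3), read -5.79, -5.08 and -4.63 in TTX and -2.30, -2.13 and -2.54 at 45 min. Its TTX arrays differed by more than a log2 unit, yet all lay below the 3 arrays at 45 min. The rise was 2.85 ± 0.34 (SE, n = 3 per group), 7.19-fold, with an adjusted p of 0.0108. With normexp it was 2.06 (adjusted p 0.0859), and with slide as a fixed block 3.61 (0.0795). Fosl2, the gene of Fra-2, rose 3.46-fold (log2 1.79 ± 0.23, adjusted p 0.0192). Fos itself rose 97.4-fold from -3.16, -3.02 and -2.63 to 4.03, 3.90 and 3.08. Junb, the main inducible Jun protein besides c-Jun, rose 34.4-fold (adjusted p 4.76e-05), and its replicate 3 at 45 min, at 1.08, was below the other two at 2.07 and 2.28.

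Maff, which encodes a small Maf protein that binds DNA but has no activation domain of its own (chr7:117372288-117372712), stood at -6.93, -6.36 and -6.64 in TTX and at -5.13, -4.99 and -4.95 at 45 min. Its 3.07-fold rise had an adjusted p of 0.0439, or 0.116 when the replicate number was fitted as a block (the replicate block below). With normexp its change was 0.66 (adjusted p 0.958). Jun was close to the threshold but was not called: 2.92, 3.29 and 3.36 in TTX, 3.96 to 4.54 at 45 min, log2 1.10 with an adjusted p of 0.0699. Fosb, a Fos family member, had a log2 change of 0.95 (adjusted p 0.218), and Atf3, a stress-induced repressor of the same superfamily, 0.66 (0.117). Of the 15 AP-1 and Maf genes tested, 5 rose, 0 fell and 10 were not called, with a median change of 0.66.

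All 4 EGR zinc-finger genes rose, and they ranged in size. Egr4 read -0.20, -0.30 and -0.47 in TTX and 5.40, 4.69 and 4.85 at 45 min, which is a 39.4-fold rise (log2 5.30 ± 0.18, adjusted p 6.25e-06, the lowest of the comparison). Egr2 (chr20:21897740-21897799), whose CArG box is printed above, went from -2.12, -1.90 and -1.80 to 2.41, 2.46 and 2.02, 18.9-fold. Egr1 rose 18.2-fold and Egr3 2.53-fold, the latter with an adjusted p of 0.032, or 0.106 with the replicate block, and with normexp a change of 0.64 (adjusted p 0.958). Nab1 and Nab2, corepressors that bind EGR proteins, had changes of -0.31 and 0.12 and were not called.

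Orphan nuclear receptors of the NR4A family, which act without a known hormone, were represented by 2 called genes. Nr4a1 (chr7:140096879-140096938) was at 1.87, 1.39 and 1.32 in TTX and at 5.66, 5.92 and 5.60 at 45 min, 18.4-fold higher (adjusted p 8.39e-06). Nr4a2, known as Nurr1 and needed by midbrain dopamine neurons, rose 3.44-fold from -1.61, -1.52 and -1.36 to 0.61, 0.11 and 0.14 (adjusted p 0.00744). For Nr4a3 the probes disagreed. Its brightest probe gave 0.70 (adjusted p 0.218), so the gene was not called, while its other probes gave 1.50 and 3.07.

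The remaining transcription regulators came from several families. Klf4, a zinc-finger factor best known from stem cells (chr5:73452107-73452166), read -0.96, -0.83 and -0.64 in TTX and 1.40, 1.62 and 1.33 at 45 min, a 4.80-fold rise (log2 2.26 ± 0.14, adjusted p 6.27e-05). Only Klf4 was called among 16 genes of its list, where Klf5 had 0.75, Klf2 0.71 and Klf9 0.44, and the list's median was -0.02. Ier2, a small nuclear protein of immediate early type, rose 4.83-fold from levels between 2.67 and 2.81 to levels between 4.79 and 5.33 (adjusted p 0.000166). Nfil3, a leucine zipper repressor with roles in the circadian clock and in immune cells (chr17:18107192-18107251), stood at -0.32, 0.14 and -0.01 in TTX and at 1.50, 1.94 and 1.46 at 45 min, 3.23-fold higher (adjusted p 0.0101). Myc (0.44) and the cyclic AMP repressor gene Crem (0.44) were not called.

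**Figure D2:**
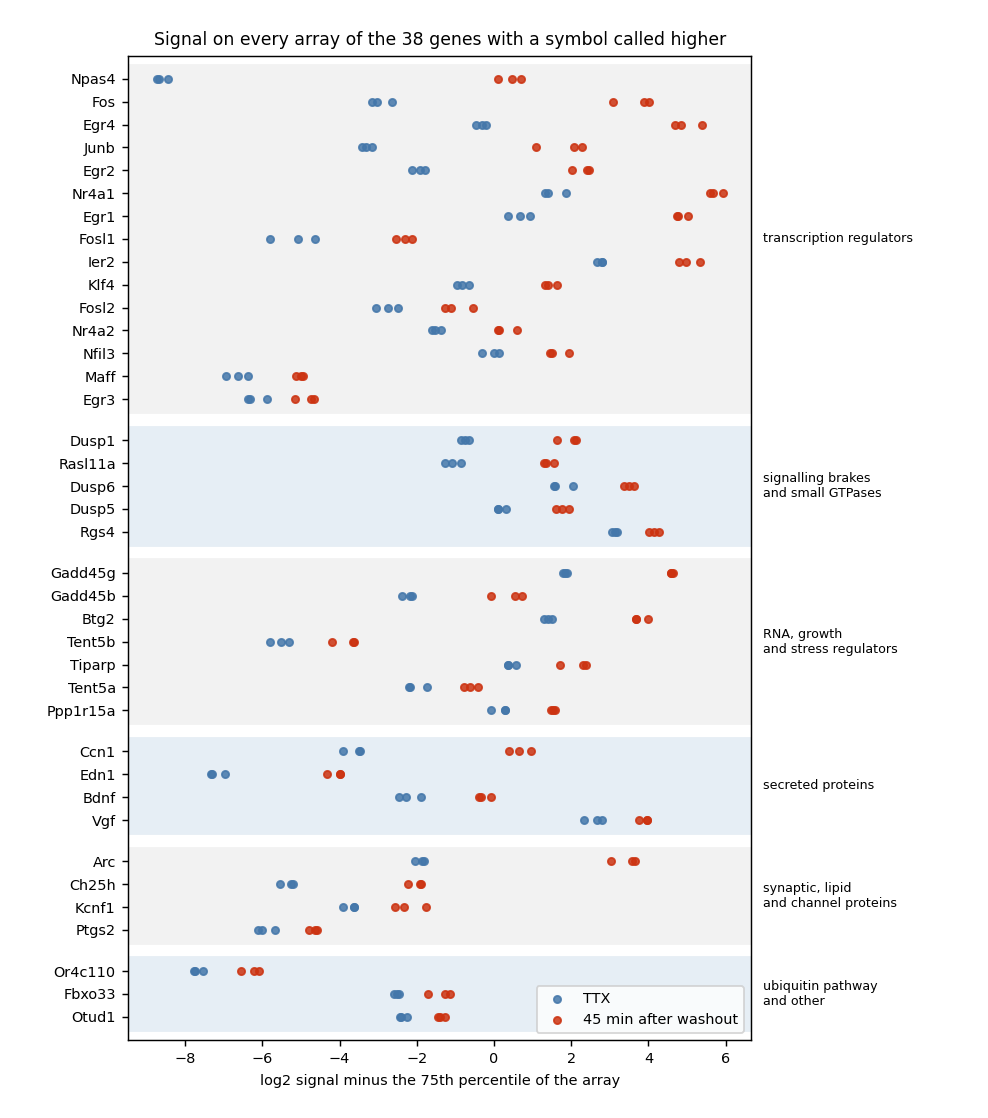
Each dot is 1 array, with the log2 processed signal minus that array's 75th percentile on the horizontal axis and the 38 genes with a symbol called higher in rows by role, TTX in blue and 45 min after washout in red (3 arrays each). In every row the 3 red dots lie to the right of the 3 blue ones; Npas4 and Or4c110 were below the background limit in TTX.

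Signalling genes formed a group of 5, with a median change of 1.77: 4 that restrain the signals set off by firing, and the small GTPase Rasl11a. Dusp1, the nuclear phosphatase that removes phosphate from p38, JNK and ERK kinases (chr10:16945391-16945710), read -0.74, -0.65 and -0.86 in TTX and 2.11, 1.63 and 2.08 at 45 min. The rise was 6.45-fold (log2 2.69 ± 0.15, adjusted p 4.76e-05). Dusp5, a nuclear phosphatase of ERK (chr1:259978481-259978540), rose 3.05-fold from 0.30, 0.10 and 0.10 to 1.93, 1.77 and 1.62 (adjusted p 0.00069). Dusp6, its cytoplasmic counterpart (chr7:36917125-36917184), rose 3.41-fold, from 1.57, 1.56 and 2.05 to 3.49, 3.37 and 3.64, with an adjusted p of 0.0189. Each phosphatase had its 3 arrays at 45 min above its TTX arrays, and the spread between TTX arrays was widest for Dusp6. Of 10 phosphatases tested, 3 rose and 0 fell, with a median of 0.25, and Dusp4, another nuclear member, had 1.12 (adjusted p 0.181).

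Regulators of receptor signalling at other points were measured as well. Rgs4, which speeds the shut-off of Gi and Gq proteins (chr13:85548287-85548346), went from 3.19, 3.13 and 3.05 to 4.01, 4.27 and 4.15, a 2.03-fold rise with an adjusted p of 0.0211, or 0.0714 with the replicate block. A further probe for Rgs4 gave 0.81. Rasl11a, a small Ras-like GTPase (chr12:8736090-8736149), rose 5.52-fold from -1.28, -1.09 and -0.86 to 1.29, 1.55 and 1.33 (adjusted p 0.000284). It sits in the list of regulators of G-protein signalling but is a GTPase itself, and Rgs2, of the same list, had 1.26 with arrays at 45 min of 4.17, 4.11 and 2.86 (adjusted p 0.397). None of the 10 Sprouty, Spred and related genes was called in limma, although 5 were higher at an unadjusted p under 0.05, and Spry1, an inhibitor of receptor tyrosine kinase signalling, had 1.01 (adjusted p 0.0796). The 14 inducible kinases also had 0 calls, with 3 higher at an unadjusted p under 0.05. Trib1, a pseudokinase, had 1.18 (adjusted p 0.209), and its other probes gave 1.20 and 1.32. Sik1, a salt-inducible kinase, had 0.90 (adjusted p 0.717), with replicate 1 at 2.84 among arrays of 3.93 and 4.24.

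Regulators of RNA, growth and stress numbered 7, with changes from 1.36 to 2.75. Gadd45g (chr17:19231059-19231118) read 1.88, 1.85 and 1.80 in TTX and 4.57, 4.63 and 4.59 at 45 min, 6.75-fold higher (log2 2.75 ± 0.12, adjusted p 9.51e-06). Gadd45b rose 6.20-fold from -2.39, -2.13 and -2.18 to 0.74, 0.54 and -0.08 (adjusted p 0.00174). Both encode small stress proteins that bind upstream kinases of the p38 pathway and have been tied to removal of DNA methylation, and the third relative, Gadd45a, had -0.05 and was not called. Ppp1r15a, also called GADD34, which leads protein phosphatase 1 to the initiation factor eIF2α (chr1:96072506-96073008), rose 2.57-fold (log2 1.36 ± 0.15, adjusted p 0.00716).

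Several of the genes act on the poly(A) tail of mRNA. Btg2, an antiproliferative protein that recruits the CCR4-NOT deadenylase (chr13:47041065-47041124), stood at 1.49, 1.29 and 1.40 in TTX and at 3.98, 3.68 and 3.67 at 45 min, 5.22-fold higher (adjusted p 7.77e-05). Tent5a (chr8:90522860-90522919) and Tent5b (chr5:151616225-151616284) encode poly(A) polymerases that lengthen tails. Tent5a rose 2.70-fold, from -1.74, -2.21 and -2.17 to -0.63, -0.41 and -0.78 (adjusted p 0.0211), and its 3 other probes gave 1.43, 1.29 and 1.18. Tent5b rose 3.30-fold (adjusted p 0.0439, or 0.958 with normexp, where its change was 1.07) from -5.81, -5.30 and -5.53 to -3.64, -3.63 and -4.20. The related genes Btg1 (0.40) and Tob1 (0.39) were not called, and of 13 genes tested in that list 4 rose and 0 fell. The fourth is Tiparp, which encodes an enzyme that attaches single ADP-ribose units to proteins rather than one that acts on mRNA tails. Its rise was 3.25-fold (adjusted p 0.0176, or 0.0607 with the replicate block), while its other probes gave 0.71 and 1.21.

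Proteins released from the cell were encoded by 4 of the genes, with a median change of 2.52. Ccn1, a matrix-associated protein that binds integrins (chr2:243811128-243811187), read -3.51, -3.47 and -3.91 in TTX and 0.39, 0.65 and 0.96 at 45 min, a 19.7-fold rise (log2 4.30 ± 0.24, adjusted p 3.52e-05). A further probe gave 3.88. Edn1, the precursor of the vasoconstrictor peptide endothelin-1 (chr17:28306864-28306923), went from -6.98, -7.34 and -7.30 to -4.32, -3.99 and -3.98, 8.63-fold, and was above background on 1 of the 3 TTX arrays. With normexp background correction its change was 1.22 with an adjusted p of 0.958. Bdnf, the neurotrophin that strengthens synapses, rose 3.83-fold from -1.89, -2.27 and -2.46 to -0.35, -0.07 and -0.39 (adjusted p 0.00196), and another of its probes gave 2.40. Vgf, a neuropeptide precursor induced by neurotrophins (chr12:20895877-20895936), rose 2.47-fold from 2.79, 2.34 and 2.67 to 3.97, 3.77 and 3.96 (adjusted p 0.011).

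Few other secreted factors were called. Of 33 growth factors and neuropeptides tested, 3 rose and 0 fell, with a median of 0.15. Cartpt, precursor of the CART peptide, had 1.06 with an adjusted p of 0.142, and Crh, the corticotropin-releasing hormone gene, had 0.98. Ccn2 and Ccn3, the relatives of Ccn1, had 0.07 and -0.00. In the list of matrix, adhesion and serum-response genes the other call was Fbxo33, an F-box protein of ubiquitin ligases and no matrix protein. The chemokine gene Cxcl1 had the largest change of its list and was not called: -5.43, -4.88 and -5.22 in TTX, -2.52, -2.37 and -3.86 at 45 min, log2 2.26 with an adjusted p of 0.062. Without W45 replicate 3, the lowest of those arrays, its change was 2.73 and it was called. None of the 12 NF-kB and inflammatory genes tested was called in limma, and 2 were higher at an unadjusted p under 0.05.

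At synapses and membranes 4 genes rose. Arc, which promotes the removal of AMPA receptors and forms capsid-like particles (chr7:112806255-112806314), read -2.04, -1.87 and -1.80 in TTX and 3.66, 3.56 and 3.02 at 45 min, 39.9-fold higher (adjusted p 9.51e-06). Ch25h, the enzyme that makes 25-hydroxycholesterol (chr1:238621362-238621421), went from -5.26, -5.54 and -5.20 to -1.90, -1.90 and -2.22, a rise of 3.32 ± 0.14 on the log2 scale (adjusted p 8.39e-06). It was the single call among 19 lipid and sterol genes, where Idi1, an enzyme of isoprenoid synthesis, had 0.28. With normexp background correction, the change of Ch25h was 2.44 and its adjusted p 0.064. Ptgs2, the inducible cyclooxygenase of prostaglandin synthesis (chr13:64448537-64448596), rose 2.40-fold from -6.01, -6.10 and -5.67 to -4.78, -4.59 and -4.63 (adjusted p 0.00848). With normexp its change was 0.63, a 1.54-fold difference (adjusted p 0.958).

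Kcnf1 encodes a modulatory potassium channel subunit that forms no channel by itself (chr6:40914212-40914271). It stood at -3.90, -3.63 and -3.63 in TTX and at -1.77, -2.33 and -2.57 at 45 min, 2.83-fold higher, with an adjusted p of 0.0479, or 0.117 with the replicate block. It was the single call among 28 potassium and calcium channel genes, whose median was 0.06. Homer1, the gene of a postsynaptic scaffold with an activity-induced short form, had 0.11 (adjusted p 0.932), and its other probe 0.12; the probes could not be assigned to the short or long form here. Of 22 synaptic effectors 2 rose, Arc and Ptgs2, and Pcdh8, an adhesion protein, had 0.67 (adjusted p 0.326).

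The last 3 genes had small changes. Fbxo33 (chr6:79907040-79907099) rose 2.22-fold from -2.51, -2.59 and -2.46 to -1.27, -1.14 and -1.70 (adjusted p 0.0364, or 0.117 with the replicate block). Otud1, a deubiquitinating enzyme (chr17:93720040-93720099), rose 1.98-fold from -2.26, -2.40 and -2.43 to -1.45, -1.27 and -1.41 (adjusted p 0.0149, or 0.0606 with the block). Or4c110, named as an olfactory receptor, was not above background on any TTX array, so its probe passed the filter only through the washout groups. It was at least 1.92-fold higher at 45 min, from measured values of -7.77, -7.74 and -7.54 to -6.54, -6.07 and -6.22. The adjusted p of 0.00851 in limma belongs to the measured log2 change of 1.40 and does not test that bound. With normexp its change was 0.53, a 1.45-fold difference, with an adjusted p of 0.958. Its level at 15 min, -6.47 to -6.81, overlapped that at 45 min, which sets it apart in value from the other 37 genes.

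Across 22 lists by function that had been drawn up for neuronal early genes, 36 of 346 genes tested rose (10.4%, against 0.309% of all genes with a symbol), and 0 fell. The lists were written with earlier results of these data known, so this share is a description of where the 38 genes fall; Otud1 and Or4c110 are on no list. EGR and NAB genes had the highest median, 2.76, followed by NR4A receptors at 1.78 and AP-1 and Maf genes at 0.66. The list named late-response activity genes had 4 of 23 called and a median of 0.35, and the calls were Bdnf, Vgf, Ptgs2 and Rgs4. Whether their rise needed new protein was not tested. Heat shock genes (0 of 15 called in limma, 1 higher at an unadjusted p under 0.05), cyclic AMP feedback genes (0 of 18, 3 higher) and reference genes (0 of 15, 0 higher) had medians of 0.11, 0.11 and 0.07.

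**Figure D3:**
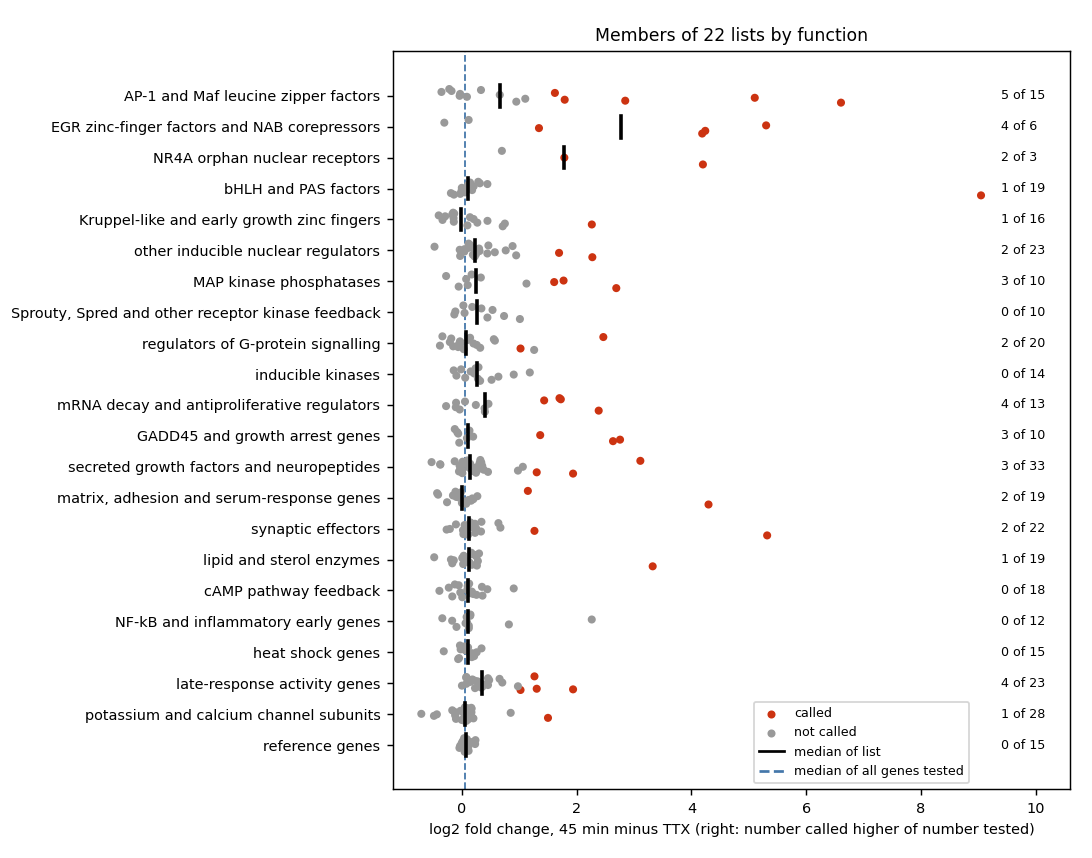
Each dot is a tested gene of 1 of 22 function lists, placed by its log2 fold change at 45 min against TTX; red dots were called, black bars are list medians, the dashed line is the median of all genes tested, and the numbers on the right count the called and the tested. The called genes lie in 16 lists and the EGR and NAB list has the highest median.

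Each gene that rose was also measured 15 min after washout, and its mean at 45 min was above its mean at 15 min in all 38. The median change of the 38 against TTX was 0.35 at 15 min and 2.10 at 45 min. Both comparisons use the same TTX arrays. Called already at 15 min were Npas4, Fos, Junb, Egr1, Egr4 and Gadd45g, which are all the features called higher at that time (0.0233% of those tested). Fos, for example, changed by 4.86 at 15 min and 6.61 at 45 min, and Egr1 by 2.10 and 4.19.

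Other genes showed little change at 15 min. Klf4 had 0.11 at 15 min and 2.26 at 45 min, Dusp5 0.04 and 1.61, Ptgs2 0.05 and 1.26, and Tiparp 0.04 and 1.70. Bdnf (-0.15) and Vgf (-0.15) had negative values at 15 min that were not called, and Edn1 was above background on 0 of 3 arrays at 15 min and 1 of 3 in TTX, so its value of -0.14 has no direction. Nr4a1 changed by 0.44 at 15 min, from TTX levels of 1.32 to 1.87 to levels of 1.74 to 2.08, which overlap, while at 45 min it changed by 4.20.

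The direct test of 45 against 15 min called 31 features higher (0.12%) and 3 lower (0.0116%), and among the higher were 27 of the 38 genes. This test uses the same 45 min arrays as the comparison with TTX, so the count is no separate evidence. Nr4a1 was 13.5-fold higher at 45 than at 15 min (adjusted p 4.49e-05), Arc 12.4-fold (0.000289), Ccn1 10.7-fold (0.000302), Npas4 10.2-fold (0.0155) and Ch25h 7.89-fold (4.49e-05). Edn1 was not above background on any array at 15 min, so it was at least 8.18-fold higher at 45 min. Its adjusted p of 4.49e-05 in limma belongs to the measured 9.51-fold difference and does not test that bound. No overlap between the arrays at the 2 times was seen for 37 of the 38, against 3.98% of all features.

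The other 11 were not called between 45 and 15 min. Fos was 3.34-fold higher at 45 min with an adjusted p of 0.188, Junb 3.66-fold with 0.0708, Dusp6 2.62-fold with 0.0929 and Egr3 1.46-fold with 0.745. Fosl2, Maff, Tent5a, Tent5b, Kcnf1, Fbxo33 and Or4c110 had adjusted p-values between 0.0665 and 0.769. By role, 10 of 15 transcription regulators, 4 of 5 signalling genes, 5 of 7 RNA, growth and stress genes, all 4 secreted proteins 3 of 4 synaptic, lipid and channel genes and 1 of the last 3 genes were called above their level at 15 min.

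**Figure D4:**
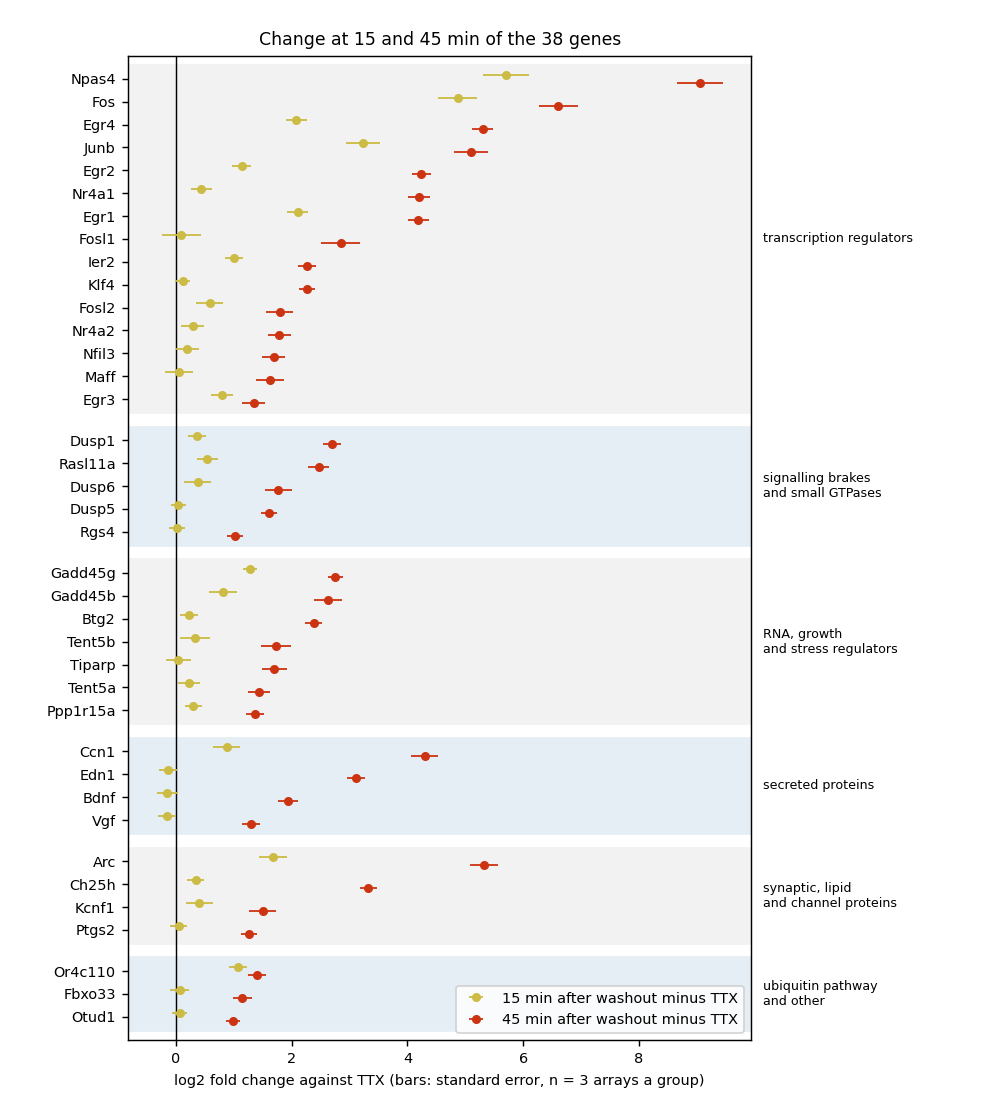
Points give the log2 fold change against TTX, with bars of 1 standard error (3 arrays per group), at 15 min (yellow) and 45 min (red) for the 38 genes in rows by role; both colours share the TTX arrays. All red points lie to the right of the yellow ones, and Edn1 (at background at 15 min), Bdnf and Vgf are left of 0 at 15 min.

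Features without a symbol added 10 rises and all 6 falls. Several rises lie beside genes already described: an expressed sequence tag 659 bases from the Dusp1 probe rose 3.61-fold, a cDNA 1181 bases from the Tent5b probe 3.53-fold, and a feature 3046 bases from the Egr3 probe 3.47-fold (distances on rn3). A further feature, at chr7:96484229-96484288, rose 2.13-fold (adjusted p 0.0125). It lies on the same strand as the Trib1 probe (chr7:96482976-96483035), and Trib1 itself was not called. A transcript annotated as similar to Klf4 rose 5.56-fold (adjusted p 7.33e-05). A predicted transcript described as similar to an NFKB-like protein of T-cell activation, which is not on the NF-kB list, rose 3.44-fold (adjusted p 0.00248). A fragment of ania-5, a transcript cloned as an early gene of stimulated neurons (chr2:23505728-23505787), had 2.74 at 45 min (adjusted p 0.0439) and 3.06 at 15 min. Distances were computed to called genes only, so its place relative to genes not called, such as Homer1, was not examined. The falls ranged from -0.99 to -2.02 and all belong to features the files leave unnamed or describe only by similarity, so no function can be given for them.

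Markers of the cell types such a culture may hold were compared in the same fit. None of the 8 marker lists had a call in limma, and at an unadjusted p under 0.05 there was 1 higher marker, of the oligodendrocyte lineage, and 1 lower, of microglia. The summed level of the 12 neuron markers ran from 8.77 to 9.01 in TTX and from 8.86 to 9.13 at 45 min, and that of the 11 astrocyte markers from 6.61 to 6.83 and from 6.56 to 6.88. For microglia, 8 of 11 markers were measured (Aif1, Itgam and Cx3cr1 did not pass the background filter), with sums of -1.28 to -1.06 in TTX and -1.76 to -1.03 at 45 min. Of 11 endothelial and mural markers 6 were measured, and Pecam1, Flt1, Tek, Rgs5 and Kcnj8 were not. Neuron markers were thus present as labelled, beside astrocyte markers and oligodendrocyte lineage markers (5.64 to 5.84 in TTX, 5.73 to 5.99 at 45 min). Arrays of a group correlated at 0.984 to 0.996, and 72.4 to 77.9% of probes stood well above background on each; the number of arrays limits the precision.

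Slide and group were partly mixed. Slide 1 held TTX replicate 1 and W45 replicate 1, slide 2 the other two TTX arrays, and slide 3 the other two arrays at 45 min, with W15 replicate 3 on slide 1 and W15 replicates 1 and 2 on slide 3. The 15 min arrays thus link slides 1 and 3, whereas slide 2 held TTX arrays only, so that there the group and the slide cannot be told apart and the block fit rests on TTX replicate 1. Within slide 1, with 1 array per group and no test, all 38 genes were higher at 45 min, with a median of 2.29. That direction was fixed in advance, because in each of the 38 every array at 45 min lay above every TTX array. It is no check on the slide. With slide as a fixed block all 38 kept their direction and the median was 2.28 against 2.10, while the median standard error was 0.267 against 0.182. In that fit 19 features were called higher (0.0737%) and 18 of the 38 genes stayed called: Npas4, Fos, Arc, Egr4, Junb, Ccn1, Egr2, Nr4a1, Egr1, Ch25h, Edn1, Gadd45g, Dusp1, Rasl11a, Btg2, Ier2, Klf4 and Nr4a2. Bdnf, for example, had 1.67 with an adjusted p of 0.194, and Dusp5 1.53 with 0.138.

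**Figure D5:**
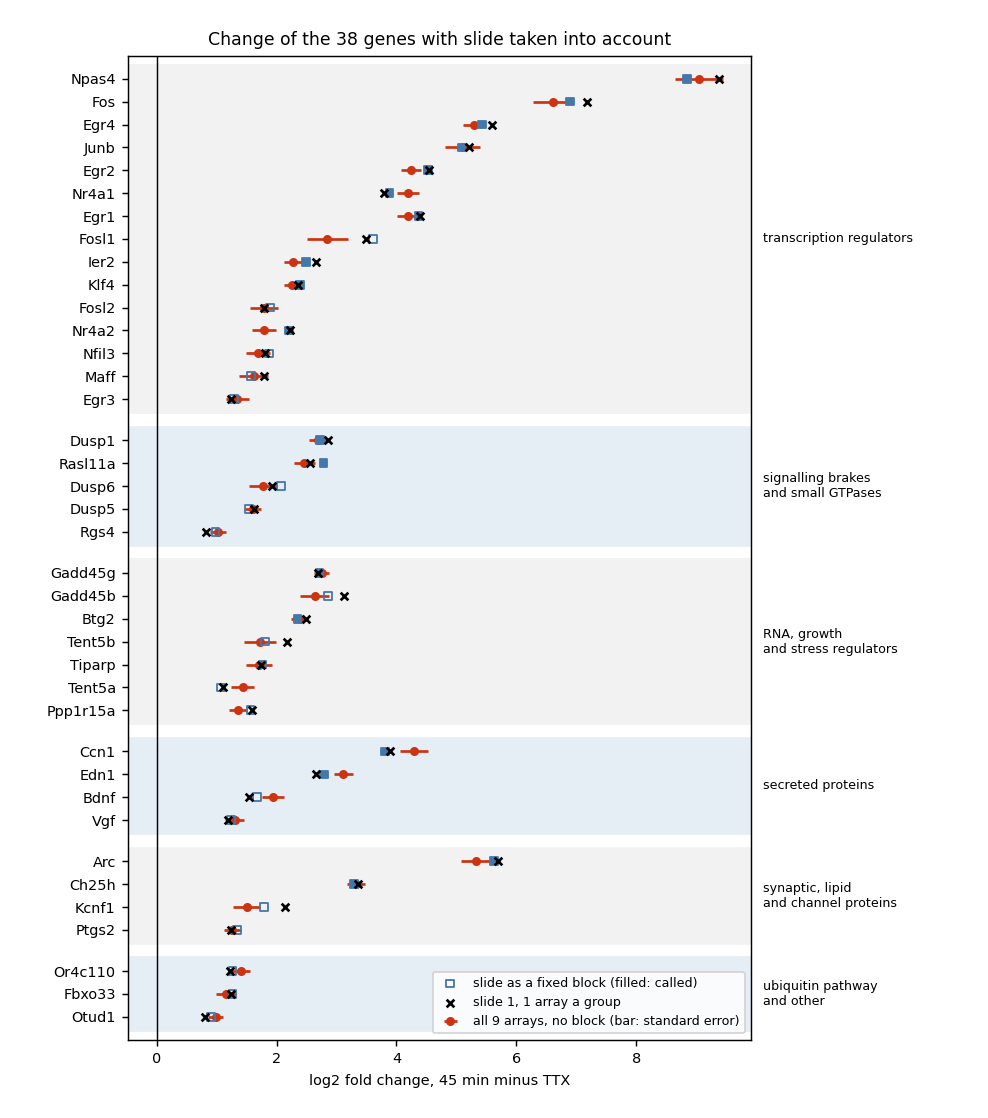
For each of the 38 genes, in rows by role, the horizontal axis gives the log2 fold change at 45 min against TTX from all 9 arrays (red, bar of 1 standard error), with slide as a fixed block (square, filled where called) and within slide 1 (cross, 1 array per group). All 38 crosses and squares lie right of 0, and 18 squares are filled. The crosses must lie there, because in these genes every array at 45 min lay above every TTX array.

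With normexp background correction 18 of the 38 lost the call: Ptgs2, Edn1, Kcnf1, Tent5a, Otud1, Nr4a2, Fbxo33, Vgf, Maff, Egr3, Tent5b, Rgs4, Fosl1, Or4c110, Fosl2, Ch25h, Dusp6 and Tiparp. The offset of 50 in this correction makes log2 changes of dim probes smaller. Among the genes lost, the change of the dim gene Edn1 went from 3.11 to 1.22, and that of the brighter Dusp6 from 1.77 to 1.86.

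Single arrays also decided calls. With each of the 9 arrays left out in turn, 21 of the 38 genes were called every time and 17 lost the call at least once. Without TTX replicate 1, 14 of the 38 were not called (adjusted p 0.0552 to 0.281), without TTX replicate 2 16 (0.0533 to 0.208), without TTX replicate 3 11 (0.0547 to 0.233) and without W45 replicate 2 13 (0.0546 to 0.214). Without W45 replicate 1 2 were lost and without W45 replicate 3 3, and leaving out W15 replicates 1, 2 or 3 lost 4, 6 and 3. The genes lost were Ptgs2, Kcnf1, Tent5a, Tent5b, Otud1, Nr4a2, Fbxo33, Vgf, Nfil3, Maff, Egr3, Rgs4, Fosl1, Fosl2, Or4c110, Dusp6 and Tiparp, of which Fosl1 had the largest change, 2.85 on the log2 scale.

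The 10 genes with a symbol just outside the threshold had adjusted p-values from 0.062 to 0.121. They were Cxcl1, Jun and Spry1, given above, C3h11orf96 (0.93), Chrne, a muscle acetylcholine receptor subunit gene (0.79), Pard6a, a cell polarity gene (0.79), Nppc, the precursor of C-type natriuretic peptide (0.73), Klf2 (0.71), Atf3 (0.66) and E230034O05Rik, with -1.06 the single negative value. Just inside it were Kcnf1 (adjusted p 0.0479), Maff and Tent5b (both 0.0439).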

How the data were processed

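Single-colour Agilent rat arrays (design 014879) of 9 samples were scanned and read, per the file headers, by Feature Extraction version 9.5.3.1 (the submitters' processing notes name 9.5), and probe positions are on rn3. Per the file headers, the values are Cy3 spot intensities, and the processed signal used here had its background subtracted and was detrended on each array; arrays were not scaled to each other. Values of the deposited table differed from it by at most 0. No value was saturated.

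From these, 43379 of 45018 spots (without 1639 control spots and 49 to 111 outlier spots per array) were averaged to 41012 probes, turned to log2, and set against each array's 75th percentile (a signal of 1563 to 2526). The 30321 probes kept were well above background throughout 1 or more groups of 3. Probes were named through RefSeq (GRCr8) by accession (10735 probes), symbol (5577), other accession (91) or synonym (3704), and 20905 kept the name in the files. The brightest kept probe stood for a gene, also for the 3669 with several.

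All 9 arrays were fitted in limma 3.58.1 (R 4.3.3) with a mean per group, two-sided, with 6 residual degrees of freedom. An exact test of 3 against 3 arrays cannot go below a p of 0.1, so none was used. Scripts were tested on simulated data. The members, lists and tests were chosen with earlier results of these data known. The text names every called gene with a symbol, the 4 largest changes of each list or fewer, 16 set genes, and the 10 just outside the threshold; further list members (Nab1, Nab2, Gadd45a, Btg1, Tob1, Crh, Ccn2 and Ccn3) were named after their values were seen, and roles were assigned to the 38 genes in the same way.

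Same-numbered TTX and 45 min arrays deviated together (correlations across genes of 0.256, 0.367 and 0.122, the first between arrays of the same slide). The numbers were therefore taken to pair these samples. The main fit leaves this pairing out, and values with the replicate block are given where they end a call. Alternatives covered scaling, background correction, the filter on dim probes, the probe rule, the arrays in the fit, the variance model, slide and replicate blocks and each array left out. Figures used Python 3.11.15 and matplotlib 3.10.9.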

Additional observations from a re-analysis of the deposited data

Results flagged for a closer look

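Of the 38 genes with a symbol that rose at 45 min against TTX, 27 were also higher at 45 than at 15 min by the direct test of the difference between the washout times (limma, adjusted over all features), so their changes against TTX differed between 15 and 45 min. These tests share the 45 min arrays. Groups of 3 arrays are too small for a test of single outlying arrays.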

How the results depend on the processing

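All 38 genes kept their direction in every alternative run, and 15 were called in each of the 20 alternatives with a test that measured them. The 48 rises became 27 without scaling between arrays, 23 with normexp background correction, 30 with only the TTX and 45 min arrays and 19 with slide as a fixed block, and 27 to 71 with each array left out. They were 28, 27 and 31 without TTX replicates 1, 2 and 3, 29 without W45 replicate 2 and 71 without W45 replicate 1. Of the 38 genes, 21 stayed called without scaling (the others had adjusted p 0.0581 to 0.387) and 20 with normexp (0.0537 to 0.958). The 6 falls became 0 with normexp, 1 without the filter on dim probes, 1 with only the TTX and 45 min arrays, 3 with the slide block, and 1 to 95 with each array left out (95 without W45 replicate 1, 30 without W45 replicate 3). The 31 rises over 15 min became 15 with normexp and 19 without the dim filter, and 18 to 57 with each array left out (57 without W45 replicate 1, 18 without W15 replicate 1, 19 without W15 replicate 2, 18 without W45 replicate 2, 20 without TTX replicate 2). The cause of these shifts was not tested. The replicate block gave 41 rises, 6 falls and 24 rises over 15 min, ended 7 of the 38 calls, each given above, and changed no other call among the 38. Slide as a random block gave 48 rises (consensus correlation -0.07). The median of all genes was 0.05, and -0.21 without scaling. Low signal over background limits Npas4, Edn1 and Or4c110 in TTX, and Edn1 and Maff at 15 min. Maff, Egr3, Ptgs2 and Tent5b were also dim in TTX (means of -6.64, -6.19, -5.93 and -5.55). Their changes were smaller with normexp.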
